A study of Saccharomyces cerevisiae with 6 samples.

Results

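PRM7 and BSC1 lie next to each other on chromosome IV of the budding yeast Saccharomyces cerevisiae, and their mRNA was measured on Affymetrix arrays. The pair was chosen by its large differences between the labelled groups, so the values of these genes are given as a description, without a test. The 2 genes were read by 3 probe sets (short oligonucleotide groups that report 1 transcript each), out of 5498 probe sets that stood for a single S. cerevisiae gene and covered 5449 genes. BSC1 (YDL037C) had the probe set 1776546_at. PRM7 (YDL039C) had 1776766_at, called the first PRM7 probe set here and used for the gene in all ranks because it had the higher mean, and 1776844_at, the second.

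All arrays held RNA of the haploid laboratory strain BY4741, harvested during exponential growth in the rich medium YPD. There were 3 arrays labelled as a deletion of YPR045C (ypr045c∆) and 3 labelled wild type (wt). YPR045C is the gene THP3, whose product acts in transcription elongation and mRNA processing. Whether each RNA had a culture of its own, and whether the deletion strain was a single isolate, the labels leave unsaid, so errors and p-values describe array-to-array spread that may be partly technical.

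PRM7 owes its name to a set of genes for predicted membrane proteins that are induced by mating pheromone. In that pathway a pheromone receptor signals through a G protein and a kinase cascade to the transcription factor Ste12. The promoter of PRM7 is also known for elements bound by Gcn4, the activator of amino acid biosynthesis genes. The product of BSC1 resembles the cell-surface flocculin Flo11, and BSC stands for bypass of stop codon, since the reading frame of BSC1 is arranged so that a ribosome passing its stop codon could go on into a further frame. The 2 genes are on the same strand, with BSC1 upstream of PRM7. In other yeast strains a single longer reading frame has been described across the interval.

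Between them an additional reading frame, YDL038C, was once annotated. The R64 gene table used here has no entry of its own for YDL038C and lists it as another name of PRM7, and 0 measured genes lay between PRM7 and BSC1. The platform's gene table names both PRM7 probe sets by the same gene identifier and does not say which of them, if either, was designed on the former YDL038C. They are therefore reported apart, by their probe set names. R64 gives PRM7 a length of 2097 bp and BSC1 one of 987 bp.

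The targeted gene was read as a check of the labels. THP3 gave deposited intensities of 949.98, 894.03 and 528.86 in the arrays labelled deletion, against 732.51, 677.63 and 462.77 in those labelled wild type. It was thus not lower under the deletion label (log2 difference 0.33 ± 0.25, SE; limma adjusted p = 0.39, and 0.015 to 0.73 over the alternatives, with 0.020 towards higher when both arrays numbered 3 are left out). No table used here places its probes relative to the deleted part. Every direction given here rests on the labels. A reporter, RPTR-Sc-AJ002682-1_s_at, read 26.4 ± 2.48 in the arrays labelled deletion and 17581 ± 485 in those labelled wild type (SD, n = 3 each). Genes of chromosome X had a median log2 difference of -0.79, against 0.03 on chromosome IV, which holds the pair. Summed intensity per array ranged from 17790552 to 18431446. The 2 arrays numbered 3 deviated together: deviations from the group means, taken over genes, correlated at 0.61 between these arrays, against -0.15 and -0.026 for the arrays numbered 1 and 2 and -0.42 to 0.48 between arrays of different numbers. Markers of the mating type matched a MATa cell in both groups. The a-cell genes STE2 and MFA1 stood at 13.59 and 12.74 on the log2 scale under the deletion label and at 13.55 and 12.24 under the wild-type label. The alpha-cell genes STE3 and MF(ALPHA)1 stood at 7.10 and 6.66 under the deletion label and at 6.64 and 6.54 under the wild-type label, near the background limit of 6.48. STE3 was nevertheless called higher (adjusted p = 0.048), a call lost in 5 of the 6 fits that left out an array. Whether these differences between the groups bear on PRM7 and BSC1 was not tested.

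BSC1 was several times as bright under the deletion label. The authors' linear signal read 1204.96, 1306.76 and 1758.66 in the arrays labelled deletion and 288.39, 208.34 and 213.38 in those labelled wild type. Every deletion-labelled array thus lay above every wild-type-labelled one, and the array numbered 3 was the highest of the deletion-labelled arrays. After quantile normalization and on the scale log2(intensity + 16), which is used from here on, BSC1 read 10.28, 10.38 and 10.83 under the deletion label and 8.25, 7.87 and 7.91 under the wild-type label. Mean levels were 10.50 ± 0.30 under the deletion label and 8.01 ± 0.21 under the wild-type label (SD, n = 3 each). The log2 difference was 2.49 ± 0.17 (SE from the limma fit across all genes), a 5.61-fold difference, and 6.01-fold on the means of the deposited intensities. The lowest deletion-labelled array stood 2.03 log2 units above the highest wild-type-labelled one.

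BSC1 was not at background in either group. Its mean stood 16.1-fold over the limit in the arrays labelled deletion and 2.88-fold over it in those labelled wild type. That limit, 6.48, is the 95th percentile of the means of 1746 probe sets for fission yeast (S. pombe) genes, which have no intended target in these samples. On the deposited scale the limit was 74.0, and the dimmest wild-type-labelled array read BSC1 at 2.82 times that value.

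The first PRM7 probe set was higher under the deletion label by a smaller factor. As deposited, it read 2152.01, 2121.76 and 3166.03 in the arrays labelled deletion and 853.6, 556.68 and 795.85 in those labelled wild type. Again the groups did not overlap, and again the array numbered 3 was the highest under the deletion label. Its normalized log2 values were 11.10, 11.09 and 11.66 under the deletion label, against 9.72, 9.17 and 9.66 under the wild-type label. It averaged 11.28 ± 0.33 under the deletion label and 9.52 ± 0.30 under the wild-type label (SD, n = 3 each). That is a log2 difference of 1.77 ± 0.20 (SE), or 3.40-fold. PRM7 lay well above the limit in both groups, 27.8-fold under the deletion label and 8.18-fold under the wild-type label.

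The second PRM7 probe set moved with it. It read 1814.95, 2011.25 and 2818.73 in the arrays labelled deletion and 647.32, 401.8 and 573.34 in those labelled wild type. On the log2 scale it averaged 11.12 ± 0.33 under the deletion label and 9.09 ± 0.32 under the wild-type label (SD, n = 3 each). The groups did not overlap, and they differed by 2.03 ± 0.21 (SE, from the fit over all probe sets), or 4.07-fold. Its order of arrays within the wild-type label was that of the first, with array 2 the lowest. Centred on their own means, the profiles of the 2 PRM7 probe sets were 0.14 log2 units apart (root mean square over 6 arrays), against 0.39 between PRM7 and BSC1. Both distances come mostly from the unequal sizes of the difference between the groups, on which the genes were chosen, and carry no test.

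**Figure D1:**
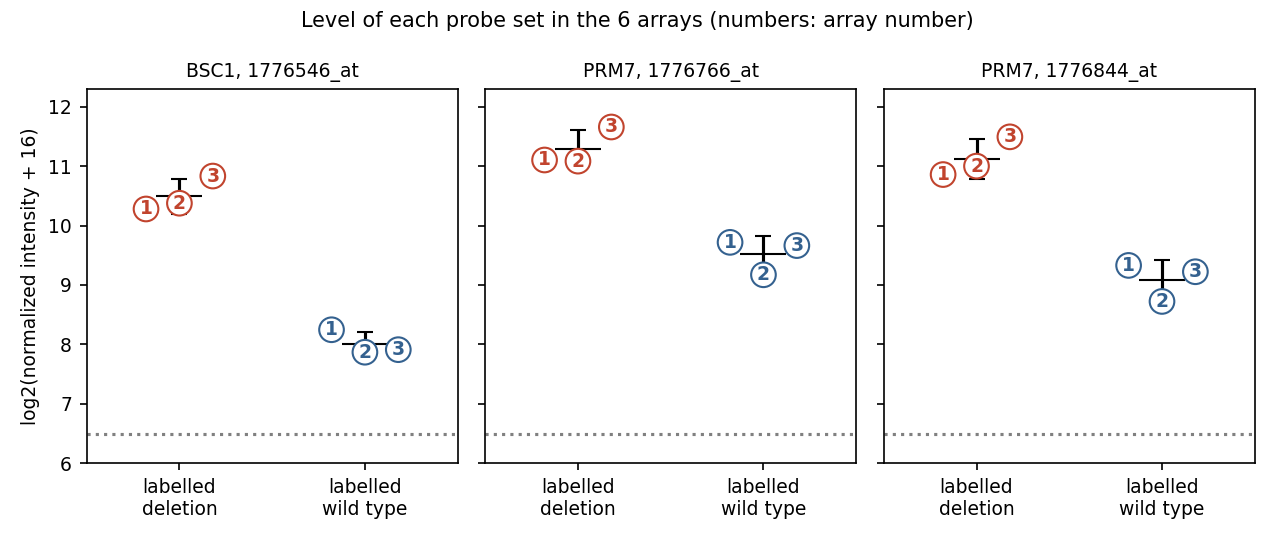
Normalized log2 level (vertical axis) of the BSC1 probe set and both PRM7 probe sets in the arrays labelled deletion (left in each panel) and wild type (right). Circles are single arrays with their number, horizontal bars are means, whiskers are SD (n = 3) and the dotted line is the background limit of 6.48; in each panel the groups do not overlap, and array 3 is the highest of those labelled deletion.

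The 3 probe sets differed in the size of the difference. The log2 value of BSC1 minus that of the first PRM7 probe set was -0.82, -0.71 and -0.83 in the arrays labelled deletion and -1.47, -1.30 and -1.75 in those labelled wild type. These offsets did not overlap between the groups, and their means differed by 0.72, so BSC1 differed by a factor 1.65 more than this PRM7 probe set. Against the second the same comparison gave 0.46, a factor of 1.38. Between the PRM7 probe sets, the second minus the first was -0.25, -0.084 and -0.17 under the deletion label and -0.39, -0.45 and -0.44 under the wild-type label, a shift of 0.26. The levels of different probe sets cannot be ranked against each other. Their shifts between groups can be set side by side, but the 2 probe sets of PRM7 alone parted by 0.26. Whether the factors of 1.65 and 1.38 reflect the genes or the probe sets was not tested. The shifts come from the contrast on which the genes were picked and were not tested.

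Both genes varied more between arrays of the same label than most genes did. The pooled within-group SD was 0.26 for BSC1, above that of 96.8% of genes. It was 0.31 for the first PRM7 probe set and 0.33 for the second, above 98.0% and 98.3% of genes, where the median gene had 0.075. In the array labelled deletion and numbered 3, BSC1 stood 0.34 above its group mean and both PRM7 probe sets stood 0.38 above theirs. In the array labelled wild type and numbered 2, the PRM7 probe sets stood 0.35 and 0.37 below their group means and BSC1 0.14 below. BSC1 and PRM7 thus had the same highest deletion-labelled array and the same lowest wild-type-labelled array. For BSC1 that lowest array was nearly tied with the next, at 7.87 against 7.91 in wild-type-labelled array 3. In that array 3 the genes parted: BSC1 stood 0.098 below its group mean and the PRM7 probe sets 0.15 and 0.13 above theirs.

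Since the arrays numbered 3 deviated together, the differences were also taken without them. From arrays 1 and 2 alone, the log2 difference was 2.27 for BSC1, 1.65 for the first PRM7 probe set and 1.90 for the second. Between the 2 arrays numbered 3 it was 2.92, 2.0 and 2.27 in the same order. The difference was thus smaller without these arrays for each of the 3 probe sets, by 0.22 for BSC1 at most. Between the 2 arrays numbered 1 it was 2.03, 1.39 and 1.53 in that order, and between those numbered 2 it was 2.51, 1.91 and 2.28. The arrays numbered 1 thus gave the smallest difference for each probe set, and for PRM7 those numbered 2 and 3 gave similar ones.

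Among the 5449 genes, 1184 passed an adjusted p of 0.05, which is 21.7%, and 11.6% passed as higher under the deletion label (630 genes, against 554 lower). Without further normalization 479 genes were higher and 635 lower, and with median centring 258 and 858. The groups did not overlap for 41.2% of genes, and for 25.1% with the deletion-labelled arrays above, so the lack of overlap of PRM7 and BSC1 is by itself common in these arrays. By log2 difference BSC1 ranked at place 3 and PRM7 at place 9 of all genes. The genes ahead include SPL2, which was below the background limit under the wild-type label, so that its difference has only a lower bound of 2.20, under the 2.49 of BSC1. The place of BSC1 relative to SPL2 is therefore not determined, and without SPL2 it is 2. The bound of SPL2 lies above the 1.77 of PRM7, which therefore stays behind SPL2 at place 9. Of the 20 genes that passed and were at least 2-fold higher, 4 lay on chromosome IV, which holds 705 of the 5449 genes. These were BSC1, PRM7, the decarboxylase gene FDC1 (1.86) and the phosphate-regulated gene PHM6. PHM6 was below the background limit under the wild-type label and was at least 2.11-fold higher under the deletion label. The 20 genes were spread over 10 chromosomes, and in the order of measured genes 2 of them stood next to each other, namely PRM7 and BSC1. The pair was chosen as close neighbours with large differences in this contrast, so their adjacency here follows from the choice.

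**Figure D2:**
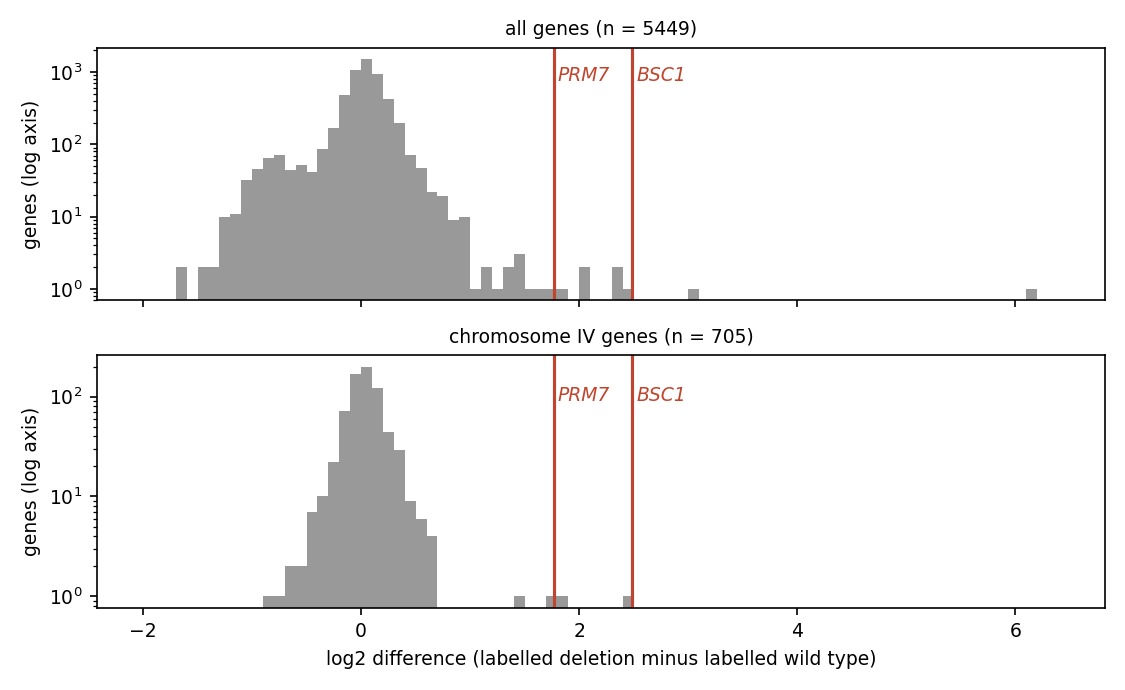
Histograms of the log2 difference (horizontal axis, labelled deletion minus labelled wild type) for all 5449 genes above and the 705 genes of chromosome IV below, with the number of genes on a log axis. Red lines mark PRM7 at 1.77 and BSC1 at 2.49, both in the sparse right tail; the shoulder near -0.79 in the upper panel is absent from chromosome IV.

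The genes around the pair differed by far less. Of the 10 measured genes on each side, 7 of 20 passed the threshold (35%, against 21.7% of all genes), 3 higher and 4 lower. Over the 705 genes of chromosome IV the share was 16.9%, 81 higher and 38 lower. The median log2 difference of the 20 was 0.015, against 0.034 over all genes. All 20 lay between -0.45 and 0.39. With median centring or values as deposited, 1 was called higher and 4 lower. The gene next to PRM7, NAT1, encodes a subunit of an N-terminal acetyltransferase. NAT1 read 12.28, 12.29 and 12.36 under the deletion label and 12.26, 12.26 and 12.36 under the wild-type label, and its log2 difference of 0.020 ± 0.05 (SE) was not called (adjusted p = 0.80). SIR2, the silencing deacetylase gene beyond it, differed by 0.010 ± 0.06 (adjusted p = 0.93).

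On the side of BSC1 the nearest gene was PUS9, which encodes a tRNA pseudouridine synthase. It read 10.27, 10.29 and 10.32 in the arrays labelled deletion and 10.12, 10.10 and 10.17 in those labelled wild type, a rise of 0.16 ± 0.04 (SE; adjusted p = 0.032). GPR1, the gene of a glucose-sensing receptor, came next with a rise of 0.24 ± 0.06 (adjusted p = 0.033). These calls depended on the scaling and on single arrays: with median centring PUS9 differed by 0.025 (adjusted p = 0.89) and GPR1 by 0.10 (adjusted p = 0.50), with both arrays numbered 3 left out neither was called (adjusted p = 0.080 and 0.14), and PUS9 was called in 1 of the 6 fits that left out an array and GPR1 likewise in 1. With chromosome X genes left out, neither was called (limma adjusted p = 0.11 and 0.090).

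Farther out, the zinc-finger gene STP4 fell by 0.44 (SE 0.05, adjusted p = 6.71e-04) and SLM3, which encodes an enzyme of mitochondrial tRNA thiolation, fell by 0.45 (SE 0.06, adjusted p = 0.0031). These falls were called under every alternative run. KNH1, a homologue of a gene of cell wall glucan synthesis, rose by 0.39 ± 0.07 (SE; adjusted p = 0.0067), the sterol-transfer gene NPC2 fell by 0.25 (adjusted p = 0.014) and the spindle kinase gene MPS1 fell by 0.19 (adjusted p = 0.028). Without both arrays numbered 3 these 3 missed the threshold (adjusted p = 0.055, 0.062 and 0.054), NPC2 also missed it without the array labelled deletion and numbered 1 (0.058), and MPS1 missed it in 4 of the 6 fits that left out an array (0.077 to 0.10). The other 13 genes, SIT4, MRP10, FAD1, MTF2, PRP11, SIR2, NAT1, DBP10, PRP9, ARP2, MRX9, RTK1 and DIA3, lay between -0.089 and 0.14 and were not called.

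**Figure D3:**
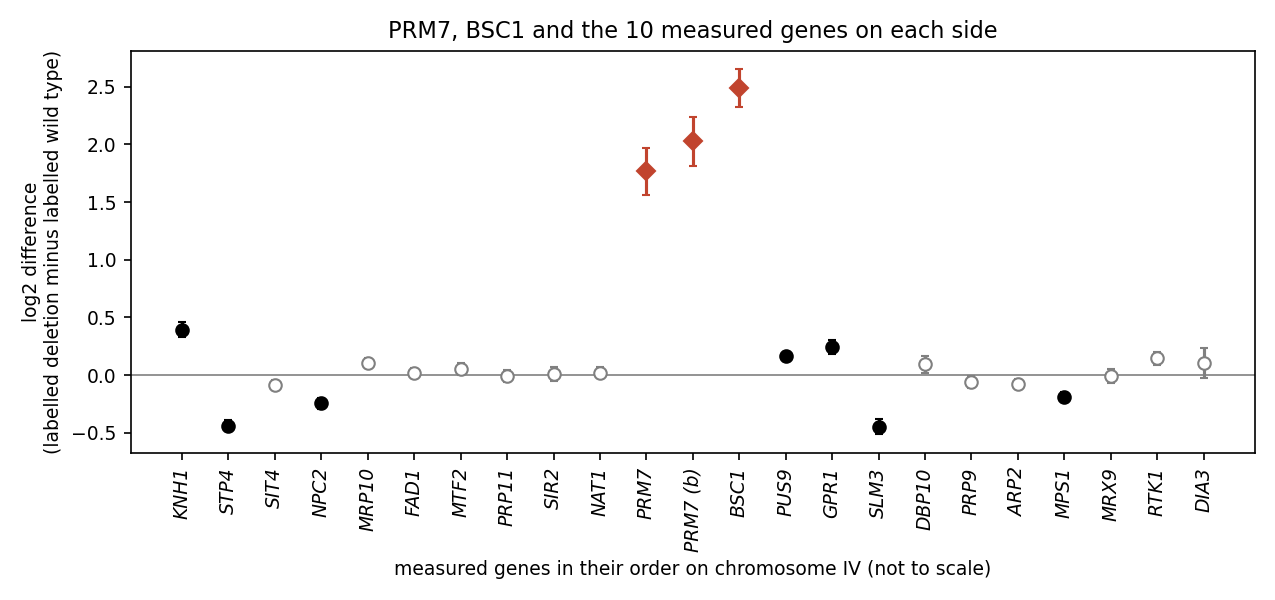
Log2 difference (vertical axis, labelled deletion minus labelled wild type, whiskers SE) of PRM7, BSC1 and the 10 measured genes on each side, in their order on chromosome IV. Red diamonds are the first PRM7 probe set, the second (b, whose place within the gene is not known here) and BSC1; filled circles are neighbours with an adjusted p under 0.05 and open circles the others, all within 0.45 of 0.

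The genes with the most similar profiles were found by the root-mean-square distance between log2 profiles centred on their own means, over the 6 arrays. For BSC1 the nearest were RPL43A (distance 0.23, r = 0.985) and RPS22B (0.25, r = 0.983), both ribosomal protein genes, followed by SPL2, PHO5 (0.31, r = 0.983) and the uncharacterized YNL040W (0.36, r = 0.971). SPL2 encodes an inhibitor of low-affinity phosphate uptake and PHO5 a secreted acid phosphatase. SPL2 did not reach the background limit under the wild-type label and was at least 4.61-fold higher under the deletion label (adjusted p = 1.93e-05), so its place among these profiles rests on values at background. PRM7, by its first probe set, came at place 7 in the order of distance to BSC1 (0.39, r = 0.986), or 6 without SPL2. The second PRM7 probe set, whose log2 difference of 2.03 was nearer to the 2.49 of BSC1, was not placed in this order.

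For PRM7 the nearest profile was that of FRE4 (distance 0.17, r = 0.988), a gene of the ferric reductase family. AGA1 followed (0.21, r = 0.989), which encodes the anchor subunit of the a-agglutinin that joins mating cells. FDC1 (0.24, r = 0.966), the cell wall mannoprotein gene TIR1 (0.27, r = 0.969) and the arginine synthesis gene ARG1 (0.28, r = 0.957) came next, and BSC1 was at place 13 for PRM7, or 12 without PHM6. All these r values are mostly set by the difference between the 2 groups. The distances also include how far the genes differ in the size of that difference, and neither measure carries a test. Within the wild-type label, PRM7 and BSC1 were lower in array 2 than in array 1, by 0.55 and 0.38. AGA1 read 9.29 in that array 2 and 9.43 in array 1, and FRE4 7.07 and 7.26, smaller steps in the same direction.

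**Figure D4:**
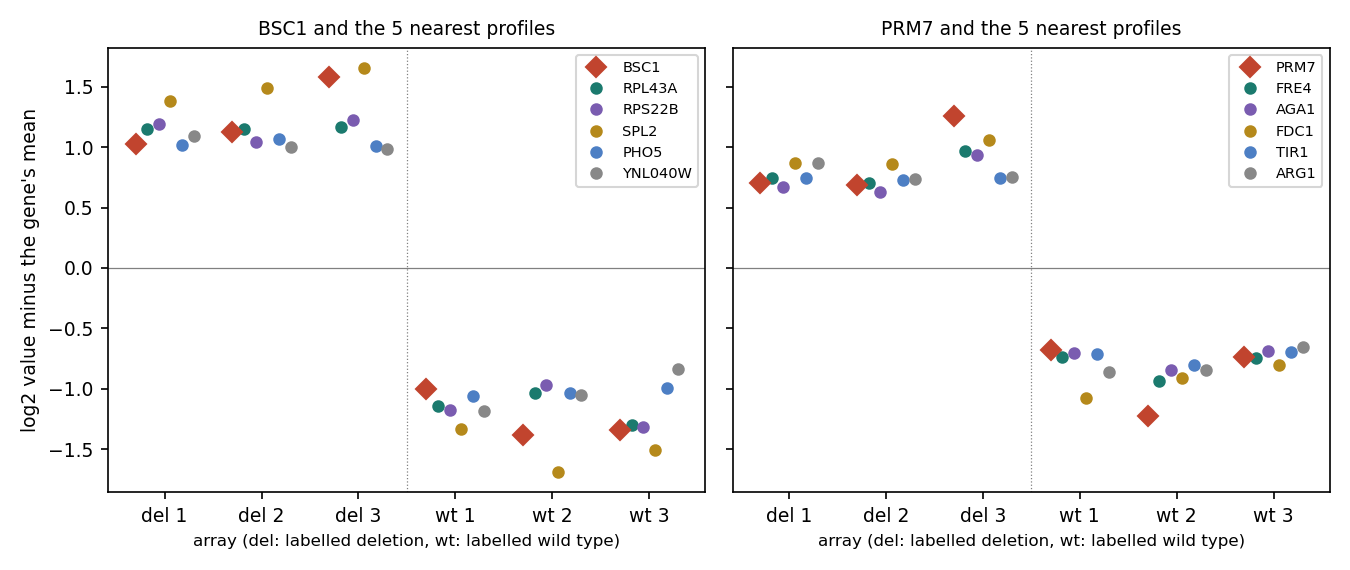
Log2 value minus the gene's own mean (vertical axis) in the 6 arrays, those labelled deletion left of the dotted line and those labelled wild type right of it. Diamonds are BSC1 (left panel) and PRM7 (right panel) and circles their 5 nearest profiles; the diamonds are highest in deletion-labelled array 3 and lowest in wild-type-labelled array 2, and PRM7 spreads more within each group than the genes nearest to it.

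Genes related to PRM7 by name differed in direction. Of the 9 other PRM genes, all measured, 3 rose, 1 fell and 5 were not called (44.4% called, against 21.7% of all genes), with a median log2 difference of 0.096, against 0.034 over all genes. PRM9 rose by 0.75 ± 0.08 (SE; adjusted p = 6.49e-04), PRM4 by 0.71 ± 0.08 (adjusted p = 8.43e-04) and PRM8 by 0.44 ± 0.07 (adjusted p = 0.0034). PRM10 lies on chromosome X and fell by 1.41 (SE 0.08, adjusted p = 5.34e-05). PRM2 and PRM6 were below the background limit in both groups. None of the 9 differed by as much as PRM7.

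Of 30 genes of the pheromone response and of mating, 4 rose, 4 fell and 22 were not called, with a median of 0.064. The share called, 26.7%, was near the 21.7% of all genes, and with median centring 3 were higher and 5 lower. AGA1 rose by 1.49 ± 0.09 (SE; adjusted p = 5.58e-05), with 10.80, 10.76 and 11.07 under the deletion label and 9.43, 9.29 and 9.44 under the wild-type label. FUS1, a cell fusion gene widely used as a reporter of the pathway, rose by 0.94 ± 0.07 (adjusted p = 8.80e-05), with 9.91, 9.86 and 10.09 under the deletion label and 9.01, 8.99 and 9.02 under the wild-type label. Both genes were highest in deletion-labelled array 3, as PRM7 was. The pheromone precursor gene MFA1 rose by 0.50 ± 0.05 and the G protein gene GPA1 by 0.27 ± 0.05, though median centring left GPA1 at 0.13, past no threshold (adjusted p = 0.37). Among the 4 falls were the G protein gene STE18, the cell cycle arrest gene FAR1 and ASG7, all 3 on chromosome X; STE18 fell by 0.70 (SE 0.06, adjusted p = 2.38e-04), and the other fall was AFR1, by 0.23. AFR1 was not called without both arrays numbered 3 (adjusted p = 0.10) and in 4 of the 6 fits that left out an array (0.066 to 0.081). STE12, the transcription factor of the pathway, differed by 0.36 ± 0.12 and was not called (adjusted p = 0.077). It did pass once the arrays numbered 3 were fitted as a batch (adjusted p = 0.034). It also passed with the array numbers fitted as a block (adjusted p = 0.037) and with an intensity trend in the spread (adjusted p = 0.042).

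Gcn4 and its targets were read because of the elements in the PRM7 promoter. Of 28 named genes 27 were measured: 7 rose, 3 fell and 17 were not called (37.0% called, against 21.7% of all genes), with a median of 0.088. The balance depended on the scaling, since with median centring 2 were higher and 5 lower. ARG1 stood apart, with 10.44, 10.31 and 10.32 under the deletion label and 8.71, 8.73 and 8.92 under the wild-type label, a rise of 1.57 ± 0.07 (SE; adjusted p = 3.56e-05). HIS4, of histidine synthesis, rose by 0.59 ± 0.09 (adjusted p = 0.0043), LEU4, of leucine synthesis, fell by 0.29 (SE 0.04, adjusted p = 0.0015), and ILV3 fell by 0.58 (SE 0.05, adjusted p = 2.66e-04). Of the 3 falls 2 lie on chromosome X, ILV3 among them. GCN4 itself differed by -0.085 ± 0.04 and was not called (adjusted p = 0.16), though it was with an intensity trend in the spread (adjusted p = 0.012). GCN4 is known to be controlled mainly in translation, which these arrays do not read. Without the array labelled deletion and numbered 2, 6 of the genes were called.

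The adhesins, to which the flocculins that BSC1 resembles belong, lay near 0 apart from AGA1. Of 7 genes 6 were measured: 1 rose, 1 fell and 4 were not called (33.3% called, against 21.7% of all genes), with a median of -0.056. The rise was that of AGA1, already named. FLO11 read 7.83, 7.58 and 8.0 in the arrays labelled deletion and 7.74, 8.01 and 7.99 in those labelled wild type, overlapping groups, and its log2 difference was -0.11 ± 0.12 (SE; adjusted p = 0.56). FLO1 fell by 0.18 (SE 0.04, adjusted p = 0.025), a call that was lost with values as deposited (adjusted p = 0.13), without both arrays numbered 3 (adjusted p = 0.11) and in 5 of the 6 fits that left out an array. FLO1 and FLO9 belong to a family of close copies, so their probe sets may share transcripts.

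Of 11 regulators known to act at the FLO11 promoter, 4 rose, 0 fell and 7 were not called (36.4% called, against 21.7% of all genes), with a median of 0.28, against 0.034 over all genes. With median centring, which moved the median of all genes to -0.083, the calls were 3 higher and 1 lower. The repressor gene NRG2 rose by 0.83 ± 0.08 (SE; adjusted p = 3.61e-04) and PHD1, an activator of filamentous growth, by 0.68 ± 0.07 (adjusted p = 8.01e-04). MGA1 rose by 0.71 ± 0.15 (adjusted p = 0.017) and MSN1 by 0.33 ± 0.07 (adjusted p = 0.013). MGA1 missed the threshold without the array labelled deletion and numbered 1 or the one numbered 2 (adjusted p = 0.055 and 0.0501), and MSN1 with median centring (adjusted p = 0.13). FLO8 and TEC1, further activators of FLO11, differed by -0.013 and -0.098 and were not called.

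Genes tied to BSC1 by the reading of its stop codon were close to 0. BSC4, BSC5 and BSC6, the 3 measured of 5 other genes named for bypass of a stop codon, differed by 0.11, -0.018 and 0.18. Limma called 0 of these 3 (0 at an unadjusted p under 0.05). Over all genes, 21.7% were called, and 1949 of 5449 had an unadjusted p under 0.05. BSC4 was below the background limit in both groups. A further list held 10 genes of translation termination and nonsense-mediated decay. Among them were the release factor genes SUP35 (0.028) and SUP45 (0.083) and the decay factor gene NAM7 (-0.039). Limma called 0 of these 10 (0 at an unadjusted p under 0.05), against the same shares over all genes. The 10 genes had a median of -0.0054 and a range of -0.098 to 0.14. Without both arrays numbered 3, NMD4 was called higher (0.29, adjusted p = 0.020).

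**Figure D5:**
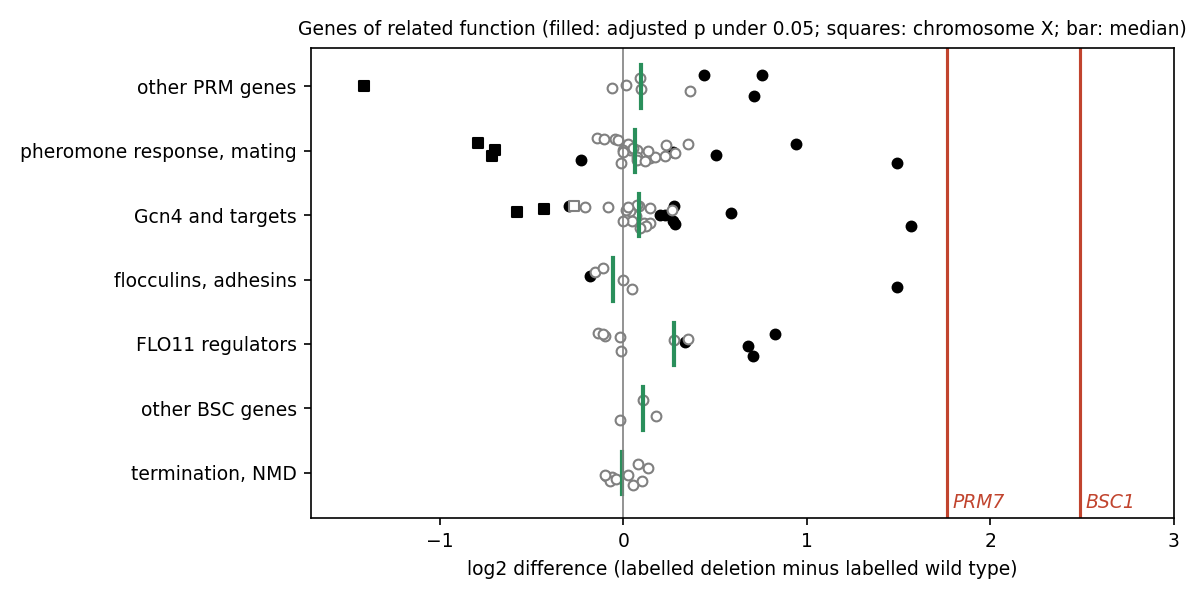
Log2 difference (horizontal axis, labelled deletion minus labelled wild type) of the measured genes of each related group, 1 row a group. Filled symbols have an adjusted p under 0.05, squares lie on chromosome X, green bars are group medians and red lines mark PRM7 and BSC1; no gene of these groups reaches the PRM7 line, and AGA1 and ARG1 come nearest.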

How the data were processed

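Per the labels' protocols, biotin-labelled cRNA was made from 1 ug total RNA by an Affymetrix method. The authors deposited 1 linear intensity per probe set and array, by a summary and scaling not stated in the sources at hand. Array medians differed by 0.26 (log2), so all 10928 probe sets were quantile-normalized and taken as log2(intensity + 16), which understates the fold of dim genes. Gene names came from the platform annotation and R64, and for the 47 genes with several probe sets the brightest stood for the gene. The groups were compared with limma 3.58.1 in R 4.3.3 (lmFit, eBayes) over 5449 genes with Benjamini-Hochberg adjustment; 12 genes lacked a value in an array and were fitted on the arrays left. The script was tested on simulated data. The members, lists and rules were chosen with earlier results of these data known. Named are the members, THP3, the 10 measured genes on each side, the 5 nearest profiles of each member, up to 4 called genes of each list, FLO11, STE12 and GCN4. GPA1, ASG7, AFR1, FAR1, FLO8, TEC1, SUP35, SUP45, NAM7, NMD4, PHM6, PRM2, PRM6, FLO9, the mating-type markers, the reporter and the BSC genes were added after their values were seen. Promoter and protein sequences were not used here. The alternatives are named below. The number of arrays limits the precision.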

Additional observations from a re-analysis of the deposited data

How the results depend on the processing

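BSC1 kept its direction under all 17 alternatives run for it, with log2 differences of 2.27 to 2.61, the first PRM7 probe set with 1.58 to 1.87 and the second with 1.84 to 2.16, each within 1 within-group SD of the reported value. Leaving out each array in turn gave 2.32 to 2.61, 1.58 to 1.87 and 1.84 to 2.16. The labels do not say whether the array numbers pair the samples, and the same-numbered correlations of -0.15, -0.026 and 0.61 do not settle it. With the replicate block the 3 differences were 2.49, 1.77 and 2.03 and 1297 genes were called. Leaving out chromosome X genes, added after the data were seen, left 718 genes called, 5 of the mating genes and 6 of the Gcn4 group. That removes 3 mating genes and 2 genes of the Gcn4 group that lie on chromosome X and were called lower in the main fit. The Gcn4 group then had 5 genes called higher and 1 lower, against 7 and 3 in the main fit, so calls towards higher were lost too. The counts of that alternative cover fewer genes and cannot be set directly against those over 5449. Its normalization was also run without these genes. The median log2 difference was then 0.0016, against 0.034 in the main fit, and 378 genes were called higher, against 630. Over all alternatives the count was 718 to 1573, the lowest from this smaller set, and 830 to 983 leaving out an array. Of the chromosome IV neighbours 2 were called without both arrays numbered 3 and 4 to 5 leaving out an array, and of the Gcn4 group 6 to 10. Of the adhesin genes 1 was called with values as deposited, with median centring, without both arrays numbered 3, with the intensity trend and with normalization over S. cerevisiae probe sets, and 1 to 2 leaving out an array; without both arrays numbered 3, 1 termination gene was called. Genes near 0 changed sign, none of them called in either direction: FAD1 and SIR2 with values as deposited (-0.029 and -0.041), with median centring MRP10 (-0.046), FAD1 (-0.12), MTF2 (-0.080), SIR2 (-0.13), NAT1 (-0.086) and DBP10 (-0.041), PRP11 without both arrays numbered 3 (0.041), and FAD1, SIR2 and NAT1 without chromosome X genes (-0.024, -0.044 and -0.031). Leaving out an array gave -0.035 to 0.033 for PRP11, -0.034 to 0.074 for SIR2, -0.0040 to 0.052 for NAT1, -0.053 to 0.044 for MRX9 and -0.21 to 0.00057 for FLO11. SUP35 gave -0.0019 with values as deposited, -0.095 with median centring, -0.0044 without both arrays numbered 3 and -0.023 without chromosome X genes, SUP45 -0.049 with median centring, BSC5 0.069 with values as deposited and BSC4 -0.067 with normalization over S. cerevisiae probe sets. Leaving out an array gave -0.0040 to 0.064 for SUP35, -0.017 to 0.23 for BSC4, -0.081 to 0.086 for BSC5, -0.096 to 0.0036 for NAM7 and -0.048 to 0.014 for FLO8; these were not called either. Over the named genes, 57 single values lost a call and 8 gained one under an alternative, while 1044 kept direction and call. The causes were not tested. The search for promoter motifs was not run, since no promoter sequence was used here.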
